A study of Arabidopsis thaliana with 9 samples.

Results

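HYH, GI and EIN3 are 3 Arabidopsis thaliana regulators that act in light responses, in the circadian clock and in ethylene signalling. They were taken by their annotated symbols out of 13286 loci that the platform annotation names with a probe set of their own. These genes were chosen with earlier results of these data known. Each had 1 probe set: HYH is AT3G17609, GI (GIGANTEA) is AT1G22770 and EIN3 (ETHYLENE-INSENSITIVE3) is AT3G20770. Their transcript levels were compared between 3 genotypes of whole seedlings in the Columbia-0 background, with 3 single-colour Affymetrix arrays each. AtGATA2ox is a transgenic line that overexpresses the GATA-type transcription factor AtGATA2, and the labels do not give the promoter or the number of lines. bri1-116 carries a null allele of BRI1, the receptor kinase for brassinosteroids, and its homozygous seedlings were sorted by hand, after freezing, from a population that also held heterozygotes. Col is the wild type. All seedlings spent 108 h in darkness on solid medium with 1% sucrose and were frozen without exposure to light.

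Seedlings in the dark elongate their hypocotyl, keep an apical hook and do not open or green their cotyledons. Light receptors end this programme by switching off the COP1 ubiquitin ligase, which in darkness removes transcription factors such as HY5. HYH is the close homologue of HY5, a bZIP factor that promotes light-type development and is itself a substrate of COP1. GI is a large plant protein whose transcript cycles daily with an evening peak. It stabilises the F-box photoreceptor ZTL and, with FKF1, promotes the photoperiodic flowering pathway. EIN3 is the master transcription factor of the ethylene pathway. In dark-grown seedlings it maintains the apical hook and limits the build-up of the chlorophyll precursor protochlorophyllide, and its protein is removed through the F-box proteins EBF1 and EBF2 when ethylene is low. Brassinosteroids promote the dark form of development, and the series asks where AtGATA2, a factor of light responses, and BRI1 act on the same genes.

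The deposited values are linear intensities without a unit, scaled so that every array had the same trimmed mean. The median intensity was 104.3 to 123.15 on AtGATA2ox arrays, 119.6 to 132.75 on bri1-116 arrays and 134.6 to 147.4 on Col arrays. Control probe sets near the 3′ end, divided by those near the 5′ end, measure how far RNA or cDNA is shortened. For 1 of the 2 actin controls this ratio was 3.66 to 5.45 in AtGATA2ox, 2.86 to 4.88 in bri1-116 and 1.81 to 2.03 in Col. For the other actin control it was 24.7 to 45 in AtGATA2ox, 14.5 to 33.4 in bri1-116 and 9.3 to 15.7 in Col, where bri1-116 overlapped Col. AtGATA2ox overlapped Col in the ratio for GAPDH (1.56 to 2.9, 2.33 to 2.79 and 1.56 to 1.85 in the same order of genotypes) and in that for ubiquitin (2.34 to 3.79, 2.55 to 3.65 and 2.22 to 2.37). The hybridisation controls, RNAs added in known amounts, had a mean log2 intensity of 10.9 to 11.31 in AtGATA2ox, 10.39 to 10.72 in bri1-116 and 10.04 to 10.21 in Col. The 25S ribosomal RNA probe set read 8762.9 and 3533.8 on bri1-116 replicates 1 and 2, against at most 502.8 on each of the other 7 arrays. The median, the first actin ratio and the hybridisation controls moved with genotype and set both AtGATA2ox and bri1-116 apart from Col. The other actin ratio set only AtGATA2ox apart from Col, and the GAPDH and ubiquitin ratios only bri1-116. The ribosomal RNA signal set 2 bri1-116 arrays apart and not that genotype, since bri1-116 replicate 3 read 107.7. The part of these measures in the differences below was not tested. The labels name neither a run nor a day of hybridisation, so such batches could not be examined. The records of the 3 AtGATA2ox samples do not follow on from those of bri1-116 and Col, so a separate handling of these arrays and their genotype cannot be told apart. AtGATA2 and BRI1 had no probe set named for them alone and were not analysed here, so the labels are not checked by these genes.

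HYH, the light-response factor, was dim in every genotype and no difference in it passed the test. Its intensity was 45.2, 18.4 and 133.4 on the 3 AtGATA2ox arrays, 51.3, 39.6 and 5.7 on the bri1-116 arrays, and 3.8, 20 and 6.4 on the Col arrays. The highest value belonged to AtGATA2ox replicate 3, and the ranges of all 3 genotypes overlapped, because Col replicate 2 lay above AtGATA2ox replicate 2. The group means were 65.7 ± 60.2 in AtGATA2ox, 32.2 ± 23.7 in bri1-116 and 10.1 ± 8.7 in Col (SD, n = 3 each), so the SD was 91.6%, 73.5% and 86.4% of the mean in the same order.

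The array carries 27 control probe sets for Bacillus genes, which have no target in a plant, and their readings show how bright a probe set can be without its transcript. The brightest of these controls read 58.1 to 84.1 on AtGATA2ox arrays, 37.6 to 69.5 on bri1-116 arrays and 39.6 to 63.9 on Col arrays. HYH exceeded the brightest control of its own array only on AtGATA2ox replicate 3, where it was 2.11 times as bright. On the other 8 arrays HYH was between 0.096 and 0.738 times the brightest control. In bri1-116, in Col and on the other AtGATA2ox arrays, HYH therefore read within the range of probe sets that have no target.

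**Figure D1:**
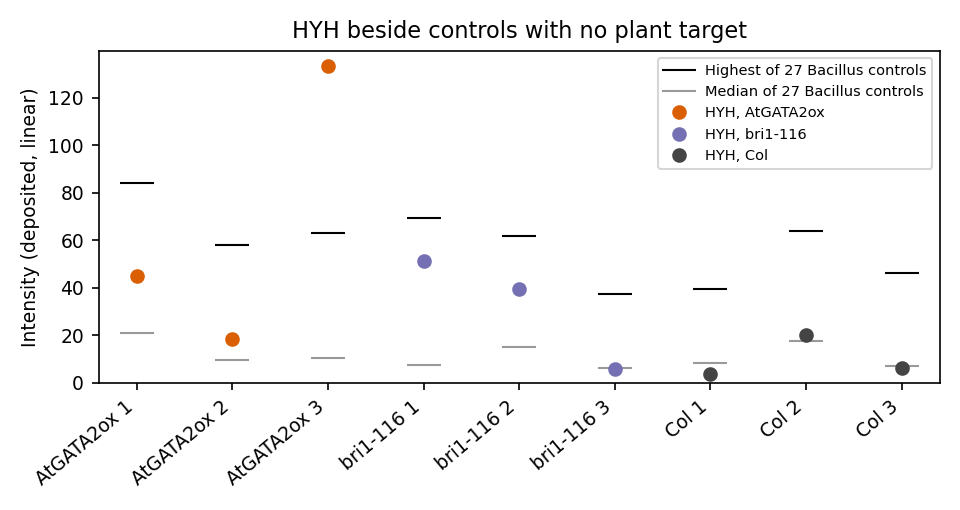
Intensity (linear scale, as deposited) of HYH on each of the 9 arrays (coloured points), with the highest and the median reading of the 27 Bacillus control probe sets of the same array (black and grey bars). The AtGATA2ox replicate 3 point, at 133.4, is the one that stands above its array's highest control (63.3).

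On the log2(intensity + 1) scale, HYH differed by 2.45 ± 0.99 (SE; 95% interval 0.30 to 4.59) between AtGATA2ox and Col, with adjusted p = 0.0854. The unadjusted p was 0.0284, and 28.5% of all 22746 probe sets tested passed the adjusted threshold of 0.05 in that comparison. The difference was 1.42 ± 0.99 between bri1-116 and Col (-0.73 to 3.56, adjusted p = 0.432) and 1.03 ± 0.99 between AtGATA2ox and bri1-116 (-1.12 to 3.17, adjusted p = 0.511). Fold changes of so dim a probe set depend on the pseudocount, and with 16 in place of 1 the AtGATA2ox difference was 1.43. Of the 9 settings that left out 1 array, it passed the threshold in 1, without AtGATA2ox replicate 2, the dimmest of that genotype (3.12, adjusted p = 0.0438). Without AtGATA2ox replicate 3, the brightest, it was 1.72 (adjusted p = 0.282). Without the 2 bri1-116 arrays with high ribosomal RNA signal, the bri1-116 difference turned to -0.44 (adjusted p = 0.93). The intervals against Col in bri1-116 and between the 2 genotypes hold 0 as well as changes of several fold.

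GI, the clock gene, was lowest in AtGATA2ox. Its transcript cycles daily and all arrays share the 108 h time point, so the course of GI over the day was not examined. Its intensity was 560.9, 691.7 and 637.2 on the AtGATA2ox arrays, 690.2, 978.5 and 990.7 on the bri1-116 arrays, and 1171, 1306.8 and 1201.3 on the Col arrays. All 3 Col arrays lay above all 6 arrays of the other genotypes, while AtGATA2ox and bri1-116 met at 1 point, as AtGATA2ox replicate 2 read 691.7 and bri1-116 replicate 1 read 690.2. The means were 629.9 ± 65.7 in AtGATA2ox, 887 ± 170 in bri1-116 and 1226 ± 71.3 in Col (SD, n = 3 each). The spread was widest in bri1-116, at 19.2% of the mean, through replicate 1 alone lying low, and it was 10.4% in AtGATA2ox and 5.82% in Col.

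GI fell 1.95-fold in AtGATA2ox relative to Col (log2 fold change -0.96 ± 0.17 SE, 95% interval -1.33 to -0.60, adjusted p = 0.000853). A 1.95-fold difference was not rare in this comparison, since 35.6% of the probe sets tested had a larger absolute change. In bri1-116 the GI value against Col was -0.49 ± 0.17 (-0.85 to -0.12), which corresponds to 1.4-fold and did not pass (adjusted p = 0.077). The direct contrast of AtGATA2ox with bri1-116 gave -0.48 ± 0.17 (-0.85 to -0.11, 1.39-fold) and also fell short of the threshold (adjusted p = 0.0541). The order of the GI means was thus AtGATA2ox, bri1-116, Col from low to high, with a test passed between the ends of that order and not between neighbours.

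The GI difference between AtGATA2ox and Col kept its call under each of the 18 other settings tried, with log2 fold changes between -2.01 and -0.62. Relative to the median of its own array, GI stood at 4.55 to 6.6 in AtGATA2ox, 5.31 to 8.28 in bri1-116 and 8.47 to 8.92 in Col, so Col remained apart from both genotypes by this measure. The GI difference between AtGATA2ox and bri1-116 was called in 5 of the 18 other settings. It was not called with quantile normalisation (-0.31, adjusted p = 0.215) or with centring on the median (-0.27, adjusted p = 0.362). With the replicate number as a block, AtGATA2ox and bri1-116 differed with adjusted p = 0.0382. Without bri1-116 replicate 1 that difference was -0.65 (adjusted p = 0.0177), and without AtGATA2ox replicate 2 it was -0.55 (adjusted p = 0.0383), while over all 9 settings without 1 array the adjusted p ran from 0.0177 to 0.194.

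EIN3, the ethylene-pathway factor, was lower in both genotypes than in Col. Its intensity was 561, 431.1 and 573.2 on the AtGATA2ox arrays, 649.7, 513.4 and 644.3 on the bri1-116 arrays, and 834, 822.5 and 1028.1 on the Col arrays. No array of AtGATA2ox or bri1-116 reached the lowest Col array, and AtGATA2ox and bri1-116 overlapped between 513.4 and 573.2. The means were 521.8 ± 78.8 in AtGATA2ox, 602.5 ± 77.2 in bri1-116 and 895 ± 116 in Col (SD, n = 3 each). The SD was 15.1%, 12.8% and 12.9% of the mean, so the 3 genotypes spread alike on this scale.

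EIN3 fell 1.72-fold in AtGATA2ox relative to Col (-0.78 ± 0.18, 95% interval -1.17 to -0.39, adjusted p = 0.00504), a change that 44.5% of the probe sets tested exceeded in size. It fell 1.49-fold in bri1-116 relative to Col (-0.57 ± 0.18, -0.96 to -0.18, adjusted p = 0.0476), where 44.1% had a larger change. This second call stands at the edge of the threshold and was lost when any one of the 6 bri1-116 or Col arrays was left out, with adjusted p between 0.0782 and 0.204. Between AtGATA2ox and bri1-116 the EIN3 difference was -0.21 ± 0.18 (-0.60 to 0.18, adjusted p = 0.449). That interval leaves room for a level in AtGATA2ox 1.51-fold lower or 1.13-fold higher than in bri1-116.

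The EIN3 calls against Col depend on the scaling. With quantile normalisation its difference between AtGATA2ox and Col was -0.51 (adjusted p = 0.0627) and that between bri1-116 and Col was -0.53 (adjusted p = 0.0779). With each array centred on its median they were -0.44 (adjusted p = 0.116) and -0.44 (adjusted p = 0.172). Relative to the median of its own array EIN3 stood at 4.11 to 5.5 in AtGATA2ox, 3.87 to 5.39 in bri1-116 and 5.58 to 7.64 in Col. The Col arrays still did not overlap the others by that measure, although the gap between AtGATA2ox replicate 3 and Col replicate 2 was narrow.

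**Figure D2:**
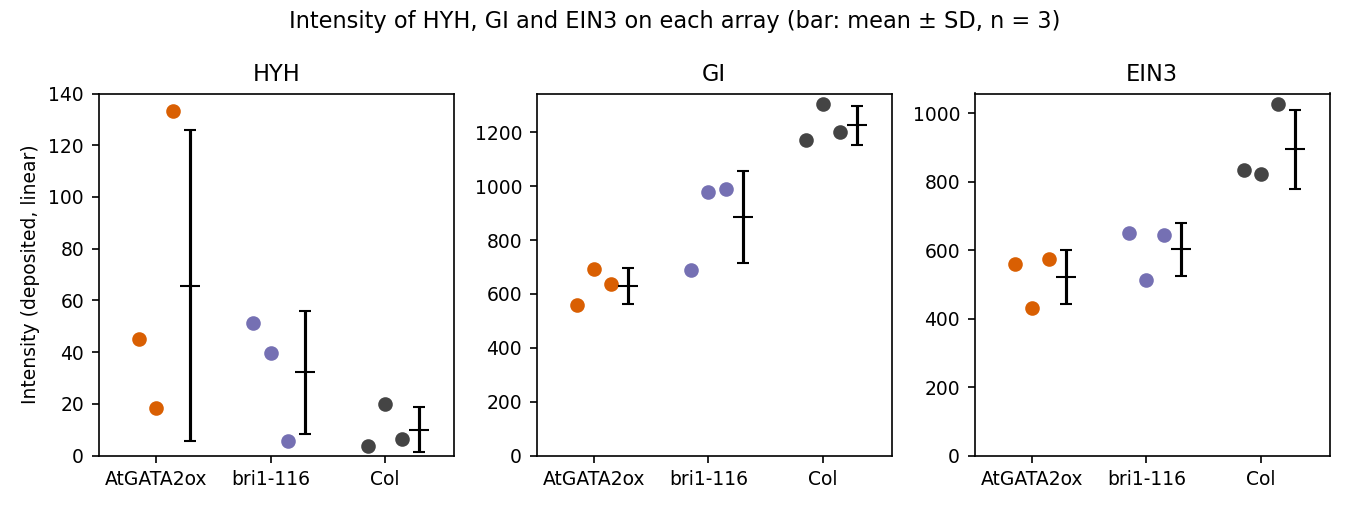
Intensity (linear scale from 0, as deposited) of HYH, GI and EIN3 on each array, with 1 point per array and the group mean ± SD (n = 3) beside the points. The Col points of GI (1171 to 1306.8) and EIN3 (822.5 to 1028.1) lie above all points of AtGATA2ox and bri1-116, while the HYH points of the 3 genotypes overlap.

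Counted together, 2 of the 3 genes passed the test as lower in AtGATA2ox than in Col and none as higher, where 18.8% of all probe sets passed as lower. In bri1-116 against Col 1 of 3 passed as lower, where 8% of all probe sets did and 15.1% passed in either direction. Between AtGATA2ox and bri1-116 limma called 0 of 3, against 26.8% of all probe sets in either direction, and 1 of the 3 had an unadjusted p under 0.05. The arrays of the groups did not overlap for 2 of 3 genes, both lower than Col, in either comparison with Col, where 25.7% of all probe sets for AtGATA2ox and 19.3% for bri1-116 lay wholly below Col. The median log2 fold change of the 3 genes was -0.78 in AtGATA2ox against Col, beside -0.17 over all probe sets, and -0.49 in bri1-116 against Col, beside -0.02. Both comparisons use the same 3 Col arrays, so they are not independent of each other. For GI and EIN3 against Col, the two-sided exact permutation test of each gene alone gave p = 0.1, the smallest value that 3 arrays against 3 allow.

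**Figure D3:**
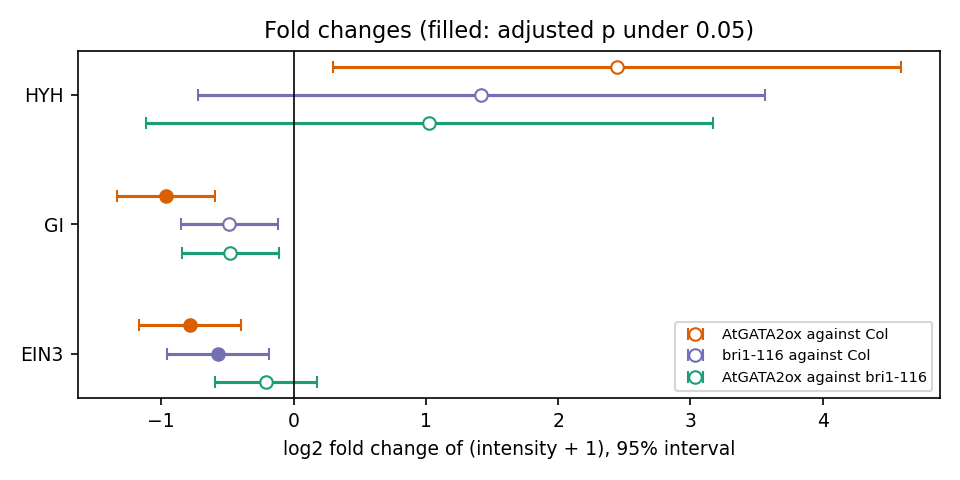
Log2 fold change of (intensity + 1) with its 95% interval for HYH, GI and EIN3 in the 3 comparisons, with filled points where the adjusted p was under 0.05. The filled points are GI (-0.96) and EIN3 (-0.78) in AtGATA2ox against Col and EIN3 (-0.57) in bri1-116 against Col, and the HYH intervals are the widest of the 3 genes.

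Scaling each array to the hybridisation controls instead shifted log2 fold changes in common, by -1.05 in AtGATA2ox against Col, by -0.47 in bri1-116 against Col and by -0.57 in AtGATA2ox against bri1-116. Calls over all probe sets then numbered 12467, 4170 and 8679 in these comparisons, against 6486, 3431 and 6086 as deposited, so each value below holds that common shift. GI was then at -2.01 (adjusted p = 1.28e-05) and EIN3 at -1.83 (adjusted p = 4.06e-06) in AtGATA2ox against Col. In bri1-116 against Col they were at -0.96 (adjusted p = 0.0122) and -1.04 (adjusted p = 0.00153). The direct contrast of AtGATA2ox with bri1-116 passed for both with this scaling, at -1.05 for GI (adjusted p = 0.00334) and -0.79 for EIN3 (adjusted p = 0.00478). After rescaling, EIN3 read 348.9 to 363.4 in AtGATA2ox, 602 to 631 in bri1-116 and 1092 to 1484 in Col. These ranges did not overlap, but neither did the hybridisation controls that set the scaling. The share of all probe sets that this scaling sets apart in the same way was not counted. HYH stayed above 0 with this scaling in the 3 comparisons (1.40, 0.94 and 0.45) and was not called in any. Whether AtGATA2ox and bri1-116 differ in GI or EIN3 therefore depends on which scaling is used.

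**Figure D4:**
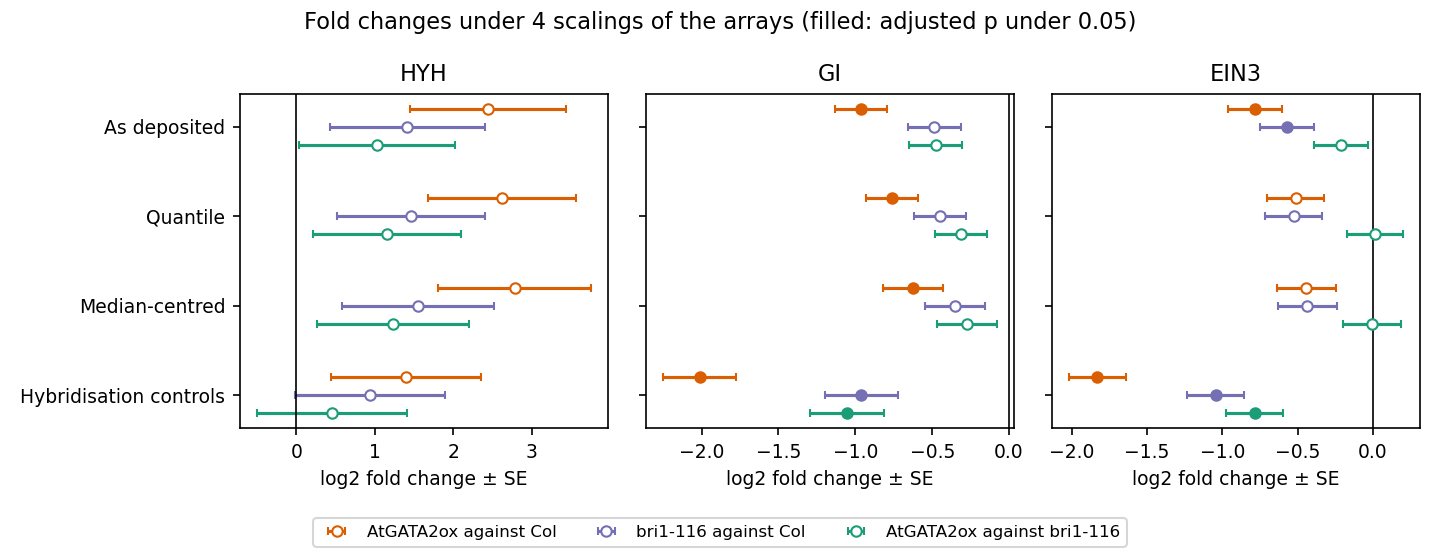
Log2 fold change ± SE of HYH, GI and EIN3 in the 3 comparisons under the scaling as deposited, quantile normalisation, centring on the median and scaling to the hybridisation controls, with filled points where the adjusted p was under 0.05. GI in AtGATA2ox against Col is filled in all 4 rows, EIN3 in that comparison only as deposited (-0.78) and with the hybridisation controls (-1.83), and HYH in none.

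Of the 121 genes listed for light signalling, the clock and ethylene, 14 had a probe set that the annotation names for them alone. The others may be on the array too, since 8730 tested probe sets are not listed in that annotation and 503 are named with several genes. HYH, GI and EIN3 are among the 14. Without these 3, limma called 6 of the other 11 lower and 1 higher in AtGATA2ox against Col. It called none lower and 2 higher in bri1-116 against Col, and 4 lower and 1 higher in AtGATA2ox against bri1-116. Over all probe sets, 18.8% were called lower and 9.72% higher in the first of these comparisons, 8% and 7.09% in the second, and 17.2% and 9.55% in the third. The number lower in AtGATA2ox among all 14 was 8, and it was 3 with quantile normalisation, 3 with centring on the median and 5 without Col replicate 1, 2 or 3.

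HYH shared its list with 1 other measured gene, FHL, which helps to bring phytochrome A into the nucleus. FHL read 180.2, 138.8 and 101.9 in AtGATA2ox, 1036, 790.9 and 934.9 in bri1-116, and 396.8, 289.1 and 299.4 in Col, with no overlap between any pair of genotypes. It fell 2.37-fold in AtGATA2ox (adjusted p = 0.00161) and rose 2.81-fold in bri1-116 (log2 fold change 1.49, adjusted p = 0.000777; 1.52 and 0.0502 without bri1-116 replicates 1 and 2), each against Col, and was 6.66-fold lower in AtGATA2ox than in bri1-116 (adjusted p = 3.99e-06).

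GI shared the clock list with 6 other measured genes. Of all 7 on that list, 5 were called lower and 1 higher in AtGATA2ox against Col, where 18.8% of all probe sets were called lower and 9.72% higher. TIC, which acts in the clock, fell 3.31-fold in AtGATA2ox against Col (173.9 ± 41.8 against 567.9 ± 30.3, adjusted p = 0.000186), a larger change than that of GI. COR27, a gene regulated by cold and the clock, rose 2.22-fold (585 ± 104 against 260.4 ± 18, adjusted p = 0.00198), but with hybridisation-control scaling it stood at 0.10 and was not called (adjusted p = 0.779). AT1G69570 (-1.76), AT4G33980 (-2.37) and AT5G52660 (-0.98) fell too, and all 3 lost their calls with quantile normalisation (-1.47, -2.25 and -0.57; adjusted p of 0.0524, 0.0534 and 0.129), as they did with centring on the median (-1.42, -2.03 and -0.64; 0.0536, 0.0609 and 0.1). AT4G33980 read 4.6, 36.4 and 15.7 in AtGATA2ox, each below the brightest Bacillus control of its array, against 72.8, 80.1 and 79.3 in Col, so the size of its difference is not exact. AT1G69570 also lost its call without AtGATA2ox replicate 1 or Col replicate 1 or 2 (adjusted p of 0.0515, 0.0601 and 0.0671), AT4G33980 without AtGATA2ox replicate 1 or any one Col array (0.061 to 0.0753), and AT5G52660 without Col replicate 3 (0.0627). XCT, also of the clock, was at -0.59 and not called (adjusted p = 0.402). In bri1-116 against Col limma called none of the 7 clock genes, where 15.1% of all probe sets were called in either direction. Their adjusted p values ran from 0.077 for GI to 0.991 for COR27, and 2 of them had an unadjusted p under 0.05.

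EIN3 shared the ethylene list with 4 other measured genes. RTE1, which acts with the ethylene receptor ETR1, read 819.7, 641.3 and 861 in AtGATA2ox, 1767, 1578.9 and 2093.6 in bri1-116, and 1060.5, 993.7 and 1129.5 in Col. RTE1 rose 1.7-fold in bri1-116 against Col (adjusted p = 0.0052; 0.289 with hybridisation-control scaling and 0.0549 without an intensity trend), where EIN3 fell. Its fall in AtGATA2ox against Col (-0.46, adjusted p = 0.0463) was kept in 7 of the 18 other settings. It was lost without AtGATA2ox replicate 2, without bri1-116 replicate 1 or 2 and without any one Col array (adjusted p of 0.0568 to 0.145), while AtGATA2ox lay 2.34-fold below bri1-116 (adjusted p = 9.96e-05). ETP2, an F-box protein that acts on EIN2 upstream of EIN3, was at -0.59 in AtGATA2ox and 0.47 in bri1-116 against Col, neither called. PDF1.2, a defensin induced by ethylene with jasmonate, was at 58.8 or less on AtGATA2ox arrays, 72.7 or less on bri1-116 arrays and 41.9 or less on Col arrays, and was not called. AT1G12010 was not called either (0.60 in AtGATA2ox and 0.62 in bri1-116 against Col).

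**Figure D5:**
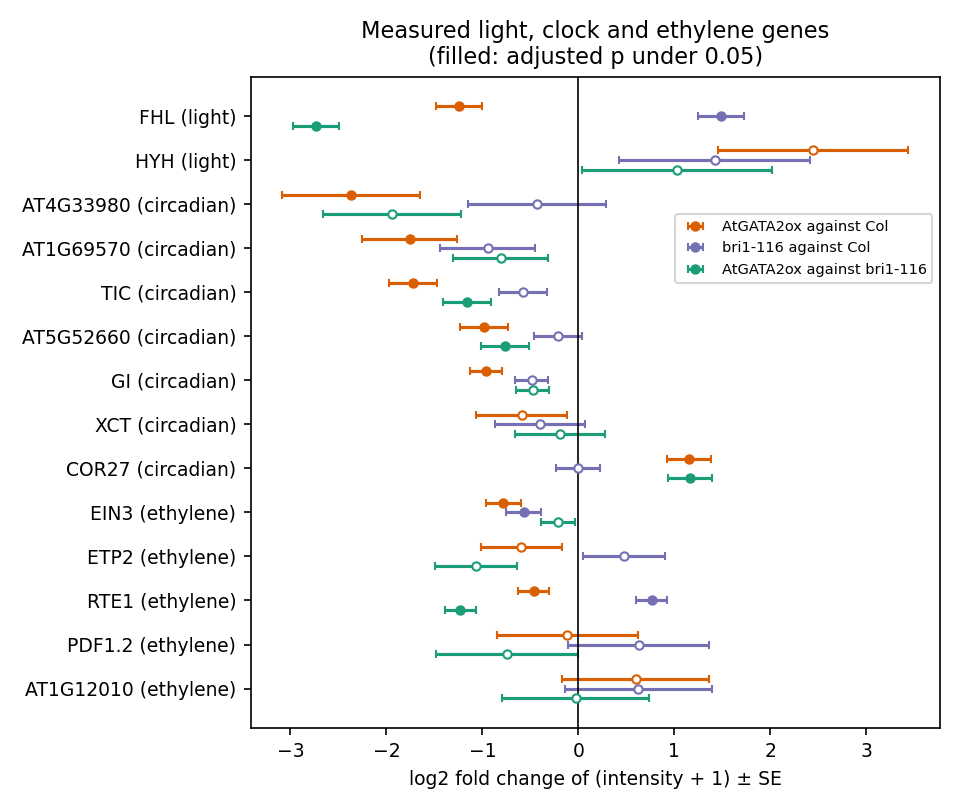
Log2 fold change of (intensity + 1) ± SE in the 3 comparisons for the 14 measured genes of the light, clock and ethylene lists, with filled points where the adjusted p was under 0.05. GI and EIN3 lie to the left of 0 in AtGATA2ox against Col, as do 6 other called genes, while COR27 (1.15) is the called gene to the right.

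For each gene, the 5 named probe sets with the most similar profile were taken by Pearson r of log2(intensity + 1) over the 9 arrays, which fall into 3 genotypes, among about 6875 bright enough in at least 1 genotype. The values of r are a description, since arrays of 1 genotype share their condition and scaling. The profile closest to GI was that of SEU (r = 0.988), at 75.8 ± 12.3 in AtGATA2ox, 140 ± 40.4 in bri1-116 and 248.2 ± 20.2 in Col. AT2G20950, AT3G56840, AT3G52060 and AT3G05920 followed GI at r of 0.972 to 0.967, and 141 probe sets had an r above 0.9 with it. EIN3 was matched most closely by AT4G26060 (r = 0.967), at 496.4 ± 103 in AtGATA2ox, 559.7 ± 59.7 in bri1-116 and 786.9 ± 134 in Col. AT3G45710, AT5G13400, AT3G06035 and AT3G54200 came next for EIN3, with r of 0.964 to 0.944, and 39 probe sets passed 0.9. HYH had 1 probe set above 0.9, AT5G16450 (r = 0.903), followed by SLY2, AT1G15120, AT5G20120 and AT3G26360 at 0.897 to 0.891. With scaling to the hybridisation controls, r between HYH and AT5G16450 was 0.043 and that between HYH and SLY2 was 0.826. Under the same scaling, GI and SEU had an r of 0.996, and EIN3 and AT4G26060 had 0.993. This scaling takes the same value, which moved with genotype, from every probe set of an array. That shared term enters each r, so these values do not show which matches are firmer. Of the 5 closest profiles, 3 of 5 stayed among the closest with centring on the median for each of the 3 genes. With quantile normalisation 1 stayed for HYH, 2 for GI and 3 for EIN3, and with the hybridisation controls 1, 2 and 2 did.

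The seedling label could be checked on few tissue markers. PORB, a protochlorophyllide reductase gene of cotyledons and leaves and the 1 shoot marker measured of 5 listed, read 8013.6 to 11552.8 in AtGATA2ox, 14200.9 to 16482.6 in bri1-116 and 5493.4 to 7722.6 in Col. The 2 root markers measured of 7, EXPA7 and EXPA18 of root hairs, summed to 36.8 to 139.2 in AtGATA2ox, 87.1 to 101.4 in bri1-116 and 94 to 132.9 in Col. EXPA18 read 29.6, 3.7 and 15.3 in AtGATA2ox, 26.8, 35.4 and 66 in bri1-116, and 71, 102.9 and 67.6 in Col. It fell in AtGATA2ox against Col (-2.59, adjusted p = 0.0198), with every AtGATA2ox value below the brightest Bacillus control of its array, while EXPA7 was not called (57.4 ± 58.3 against 34.9 ± 23.9, adjusted p = 0.757). The listed seed and floral markers had no probe set that the annotation names for them alone, and were not analysed here. In whole seedlings, fewer cells that express GI or EIN3 and less RNA per cell cannot be told apart. PORB and EXPA18 moved with genotype, but regulation of these markers themselves and a change in tissue make-up cannot be told apart here. The part of tissue make-up in the GI and EIN3 values was not tested.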

How the data were processed

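Per the labels' protocols, biotin-labelled cRNA was made from total RNA of 9 seedling samples. The deposited intensity values are 1 linear number per probe set and array (22810, from 0.1 to 61453.6). The authors' tools are named as GCRMA and MAS5 per the submitters' processing notes, without versions or roles, and the genome build is not given in the sources used here. The mean without the lowest and highest 2% of probe sets was 500.05 to 500.07 on every array, so each array had been scaled to it. Detection calls were not used here. Of 22746 probe sets tested, after leaving out 64 controls, 59.4% are named with 1 gene by the platform annotation, and 13436 of these matched RefSeq (TAIR10.1, names only).

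Values were used as log2(value + 1). One limma fit (version 3.58.1, R 4.3.3; lmFit, eBayes with a trend on intensity) took all 9 arrays with genotype as its one factor. A call needs an adjusted p (Benjamini-Hochberg, over all 22746) under 0.05. The fit was tested on simulated data. Groups came from the sample titles. Nothing says that replicates came from separate cultures, so the spread behind each p-value may be technical, and 3 arrays per genotype limit the precision. Replicate numbers are shared between genotypes, but same-numbered arrays did not deviate together (r of -0.018 to 0.02). The named genes are HYH, GI and EIN3, any measured member of the 3 gene lists, and the 5 closest profiles of each. These genes, lists and rules were chosen with earlier results of these data known. Alternatives were 3 other scalings, a pseudocount of 16, leaving out the dimmest 40% (which removes HYH), no intensity trend, only the 2 groups compared, a replicate block, and leaving out each array. Leaving out bri1-116 replicates 1 and 2 together was chosen after seeing the data.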

Additional observations from a re-analysis of the deposited data

How the results depend on the processing

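Of the 9 values for HYH, GI and EIN3, those that crossed the threshold or changed sign did so as follows (log2 fold changes). With quantile normalisation, EIN3 was at -0.51 in AtGATA2ox and -0.53 in bri1-116 against Col, both no longer called, and at 0.013 in AtGATA2ox against bri1-116, where the sign turned. With centring on the median the first 2 of these were -0.44 and -0.44 (adjusted p = 0.116 and 0.172). With scaling to the hybridisation controls, calls were gained for GI in bri1-116 against Col (-0.96) and for GI (-1.05) and EIN3 (-0.79) in AtGATA2ox against bri1-116. Without an intensity trend EIN3 in bri1-116 (-0.57) lost its call (adjusted p = 0.144), and with only the 2 groups compared GI in bri1-116 (-0.49) gained one (0.0367). GI in AtGATA2ox against bri1-116 (-0.48) gained a call without the dimmest 40% (0.0462) and with the replicate block (0.0382), and the block changed no other call of HYH, GI or EIN3. Leaving out bri1-116 replicates 1 and 2, EIN3 was at -0.47 (adjusted p = 0.413) and HYH at -0.44 in bri1-116 against Col, with the lone bri1-116 array assumed to vary like the other groups. Leaving out 1 array at a time, the ranges were -0.63 to -0.46 for EIN3 in bri1-116 against Col, 1.72 to 3.12 for HYH in AtGATA2ox against Col, and -0.65 to -0.39 for GI in AtGATA2ox against bri1-116. The cause of these changes was not tested.

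Over all probe sets 6486 were called in AtGATA2ox against Col (12467 with scaling to the hybridisation controls). In bri1-116 against Col 3431 were called, 2104 without an intensity trend, 5182 with only the 2 groups compared, 2152 to 4115 without 1 array (the lowest without Col replicate 2) and 1416 without bri1-116 replicates 1 and 2. Between AtGATA2ox and bri1-116 leaving out those 2 arrays gave 2278 calls in place of 6086. The share of calls that were higher in AtGATA2ox than in Col was 34.1%, and 47.2%, 58.1% and 3.38% with quantile, median and hybridisation-control scaling, which moved the median of all probe sets by 0.18, 0.34 and -1.05.

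Among the 14 list genes, 8 were lower and 1 higher in AtGATA2ox than in Col. The lower count was 3 with quantile normalisation, 3 with centring on the median and 5 without any one Col array, and the higher count was 0 with hybridisation-control scaling and 2 without AtGATA2ox replicate 2. In bri1-116 against Col, the lower count of 1 ranged from 0 to 3 and the higher count of 2 was 1 in 3 settings. Between AtGATA2ox and bri1-116 the lower count of 4 was 8 with hybridisation-control scaling and 7 without AtGATA2ox replicate 2, and the higher count of 1 was 0 with that scaling and without bri1-116 replicates 1 and 2.

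Sign changes among the other list genes were all of values that were not called. PDF1.2 in AtGATA2ox against Col was at 0.23 with centring on the median, 0.029 with a pseudocount of 16 and -0.54 to 0.75 without 1 array, and against bri1-116 at -1.17 to 0.12 without 1 array. AT1G12010 was at -0.45 in AtGATA2ox against Col with the hybridisation controls, and against bri1-116 at 0.051 with quantile normalisation, 0.18 with centring on the median and -0.65 to 0.48 without 1 array. XCT in AtGATA2ox against bri1-116 was at 0.0061 with quantile normalisation, 0.013 with centring on the median and -0.52 to 0.24 without 1 array. COR27 in bri1-116 against Col was at 0.10 with quantile normalisation, 0.13 with centring on the median, -0.20 to 0.17 without 1 array and 0.37 without bri1-116 replicates 1 and 2. Without those 2 arrays AT5G52660 (0.023) and AT4G33980 (0.16) in bri1-116 against Col, and AT1G69570 (0.063) in AtGATA2ox against bri1-116, also turned. What signal over background limits is HYH, PDF1.2, AT1G12010 and AT4G33980, which leaving out the dimmest 40% removed.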
